A study of Mus musculus with 6 samples.

Results

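Calcium is stored in the sarcoplasmic reticulum of muscle fibres and released at each contraction, and the 7 genes described here encode the proteins that pump it back, restrain the pump and hold calcium inside the store: Atp2a1, Atp2a2, Sln, Pln, Casq1, Casq2 and Hrc. They were chosen by name, and all 7 were found among the 14619 genes listed in the gene table. RNA came from the tibialis anterior, a shin muscle made mainly of fast-twitch fibres. All mice carried 1 copy of HSA-Cre (HSA-Cre Tg/+), a Cre recombinase under the human skeletal actin promoter that is active in skeletal muscle fibres. The 3 knockout libraries, replicates 5, 7 and 8, were Acin1 F/F, with floxed alleles of the splicing factor gene Acin1 on both chromosomes, and the 3 control libraries, replicates 1, 2 and 3, were Acin1 +/+. The comparison asks how loss of Acin1 from muscle fibres changes gene expression and splicing. Sex, age and strain are not given in the sources used here, and nothing in them ties a library to an animal of its own. The p-values below therefore measure how far these libraries spread, which may be technical.

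The pump, SERCA, moves calcium from the cytosol into the reticulum at the cost of ATP. Atp2a1 encodes SERCA1 of fast fibres, and Atp2a2 encodes SERCA2, whose short form serves slow fibres and heart and whose long form is found in most cells. Sarcolipin (Sln) and phospholamban (Pln) are small membrane proteins that bind the pump and lower its activity. In small rodents Sln is known for high expression in the atria and in slow and developing muscle and for low expression in adult fast muscle. Calsequestrin 1 (Casq1) and calsequestrin 2 (Casq2) bind calcium inside the reticulum, and the histidine-rich protein Hrc binds calcium there as well.

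The libraries held 26968597 to 29301125 reads in listed genes in the knockout group and 21084522 to 27190731 in the control group. Acin1 itself stood at 1196, 1196 and 1195 scaled reads in knockout libraries and 1513, 1559 and 1413 in control libraries (log2 change -0.32, limma adjusted p = 0.0266), where a scaled read count is the number of reads divided by the authors' factor for that library. Whole muscle also holds cells in which this Cre is not active; their part in the Acin1 reads was not tested. All 11 genes taken as fast fibre markers, such as Acta1, Ckm and Myh4, were listed. By limma 0 of them passed, and limma-voom called 0. An unadjusted p under 0.05 was found for 1, Myh2, with a log2 change of 1.07 (limma adjusted p = 0.0767). The groups did not overlap for 1, Myh1 (-0.32, limma adjusted p = 0.196), where this held for 35.4% of all genes. Of all genes, limma called 11.3%, and 29.3% had an unadjusted p under 0.05. Of 6 heart markers, Nppa, Nppb, Myl7, Tnni3 and Mybpc3 were not among the listed genes, and Myh6 had 95.9 to 167 scaled reads in knockout libraries and 55.5 to 94.0 in control libraries. Of 4 fibroblast and 3 satellite cell markers limma called 0, with 0 at an unadjusted p under 0.05 and 0 by limma-voom. Of 5 smooth muscle markers 1 fell by limma (Tagln, log2 change -0.45), and limma-voom called 1. An unadjusted p under 0.05 was found for 3 of them, Tagln, Myh11 (-0.38) and Smtn (-0.26), all lower in the knockout. In bulk RNA, fewer cells of a type and less RNA per cell cannot be told apart.

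Sln was the member that changed. It rose in every knockout library, by a log2 change of 3.85, and by different amounts in the 3 of them. Atp2a1, Casq1 and Hrc, which carried most of the members' reads, did not pass the test. Atp2a2, Pln and Casq2 had higher means in the knockout group, with values that differed widely between its libraries, and did not pass either. By limma 1 of the 7 members was called (adjusted p under 0.05), where 11.3% of all genes were, 5.74% with a higher and 5.51% with a lower level in the knockout. At an unadjusted p under 0.05 it was again 1 member, against 29.3% of all genes, and in the authors' deposited table also 1, against 12.2%. Limma-voom, a weighted version of the fit on the reads recovered from the table, called 1550 genes and 0 of the members. The groups did not overlap for 2 members, Sln and Atp2a1, where this held for 35.4% of all genes. The median log2 change was 0.33 over the members and -0.01 over all genes.

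**Figure D1:**
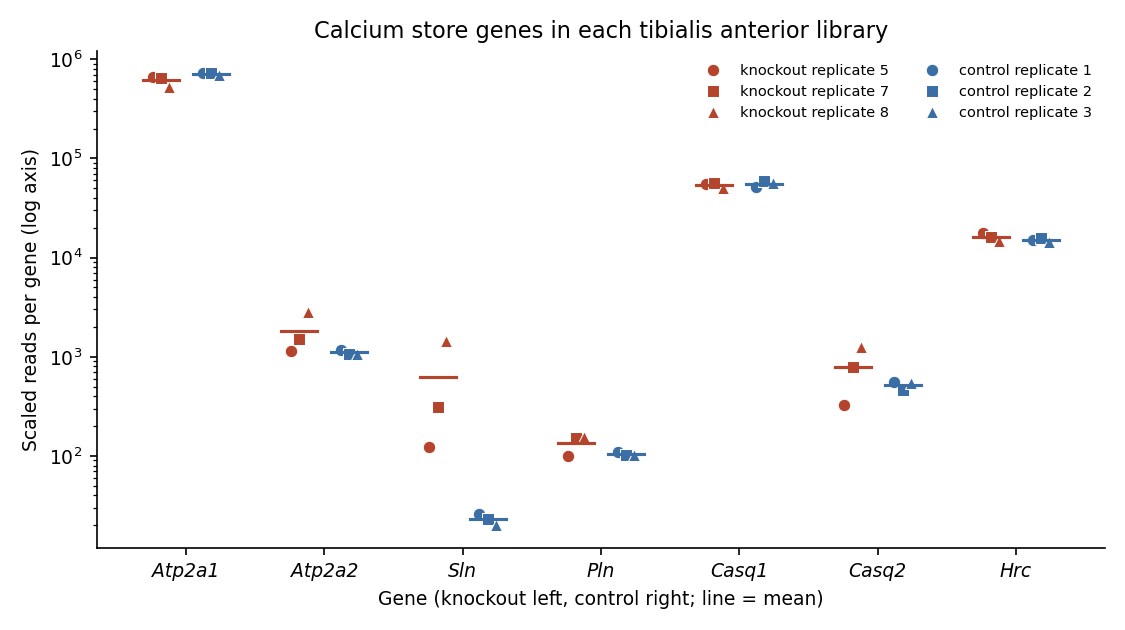
Scaled reads (vertical log axis) of the 7 genes in each library, with knockout libraries left (red) and control libraries right (blue) of each gene and group means as lines. Sln lies between 122 and 1429 in the knockout and between 20.01 and 25.8 in the control libraries, while Casq1 and Hrc overlap between the groups.

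**Figure D2:**
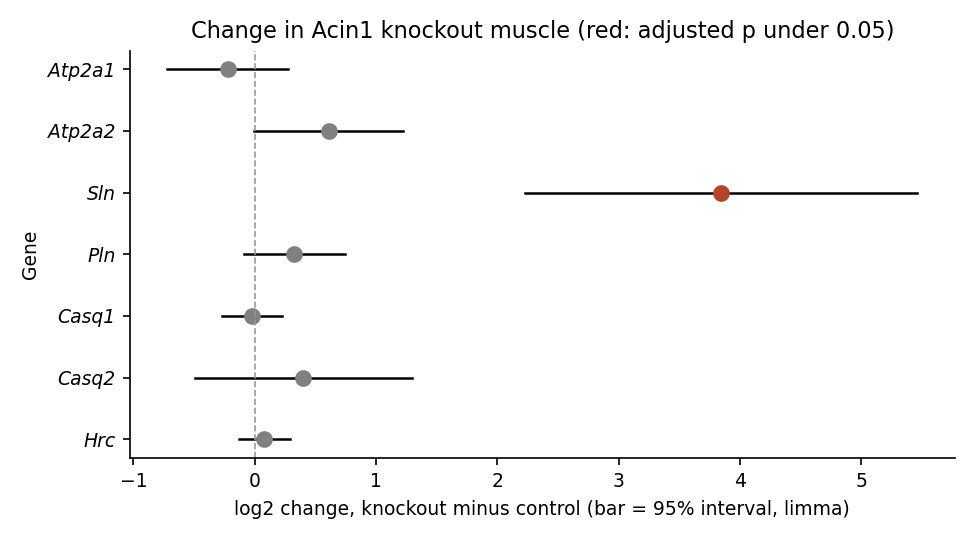
The log2 change of each gene (horizontal axis, knockout minus control), with 95% intervals from limma over 3 libraries per group. The interval of Sln, 2.23 to 5.46, lies above 0, and those of the other 6 genes include 0.

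The reading frames of both pump inhibitors are short enough to be shown whole, and are given because Sln carries the change in expression and Pln is its closest counterpart. They come from the GENCODE M21 transcripts (GRCm38), 5′ to 3′, with the start and stop codons in capitals. That of Sln, on chromosome 9, holds 31 codons before the stop and that of Pln, on chromosome 10, holds 52.
Sln reading frame: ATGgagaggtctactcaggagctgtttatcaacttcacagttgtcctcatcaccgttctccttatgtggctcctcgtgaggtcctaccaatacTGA
Pln reading frame: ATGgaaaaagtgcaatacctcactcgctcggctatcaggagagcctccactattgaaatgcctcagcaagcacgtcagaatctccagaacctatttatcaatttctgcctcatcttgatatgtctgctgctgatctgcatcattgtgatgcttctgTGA

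Sln (ENSMUSG00000042045) had 122, 315 and 1429 scaled reads in knockout replicates 5, 7 and 8, against 25.8, 23.03 and 20.01 in control replicates 1, 2 and 3. The lowest knockout library lay above the highest control library, and the knockout libraries differed among themselves far more than the control libraries did. Over the control mean, the level was 5.30-fold in replicate 5, 13.7-fold in replicate 7 and 62.3-fold in replicate 8. The group means were 622 ± 706 in the knockout and 22.9 ± 2.89 in the control (SD, n = 3 each). On the log2 scale with 4 added to the scaled reads the change was 3.85 (SE 0.71, limma adjusted p = 0.015), and the authors' deposited table gave 4.76 with an adjusted p of 5.77e-05. The call was lost without control replicate 1, 2 or 3 (limma adjusted p = 0.0598, 0.053 and 0.0599), where the log2 change was 3.76 to 3.92, and in 3 other versions of the fit. Without knockout replicate 8, the highest library, the change was 2.90 (limma adjusted p = 0.00565).

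Pln (ENSMUSG00000038583) had 99.0, 152 and 154 scaled reads in the knockout libraries and 111, 103 and 101 in the control libraries. Knockout replicate 5 lay below all 3 control libraries and replicates 7 and 8 above them. The log2 change of 0.33 (SE 0.18, 95% interval -0.09 to 0.75) did not pass (limma adjusted p = 0.272). Without knockout replicate 5 it was 0.53 and passed (limma adjusted p = 0.0473). In the GENCODE M21 annotation 59.6% of the exon bases of Pln lie opposite exons of Gm47644, and the sources used here do not say if reads were counted by strand, so the level of Pln is uncertain. Sln shares no exon bases with another gene there.

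Because a ratio within a library does not depend on scaling, pairs of members were also compared as ratios. The log2 ratio of Pln over Sln was -0.30, -1.05 and -3.21 in the knockout libraries and 2.10, 2.16 and 2.34 in the control libraries. Pln thus had more reads than Sln in all 3 control libraries and fewer in all 3 knockout libraries. The means differed by -3.72, with an exact two-sided permutation p of 0.1, the smallest that 3 against 3 libraries allow (0.2 after adjustment over 6 ratios). Counted per kilobase of exon, Sln stood at 0.482, 1.29 and 7.16 per 1000 of both pumps together in the knockout libraries and at 0.0944, 0.0843 and 0.0767 in the control libraries. These values do not overlap, and the log2 ratios differed by 4.28 (exact permutation p = 0.1, adjusted 0.2). The ratio of Pln to both pumps overlapped between the groups, at 0.187, 0.299 and 0.369 per 1000 in the knockout and 0.193, 0.179 and 0.185 in the control libraries (exact permutation p = 0.2, adjusted 0.3).

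Atp2a1 (ENSMUSG00000030730, chromosome 7), the fast pump, took 2.34% of the reads in listed genes in the knockout group and 2.72% in the control group. It had 665955, 640810 and 525077 scaled reads in the knockout libraries, against 720394, 719693 and 688088 in the control libraries. All 3 knockout values were below all 3 control values, and replicate 8 was the lowest. The log2 change was -0.22 (SE 0.22, 95% interval -0.72 to 0.27) and did not pass (limma adjusted p = 0.533). The difference was -0.12 without knockout replicate 8. Of its exon bases 21.9% lie opposite those of Rabep2, which could add reads if counting did not use the strand.

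Atp2a2 (ENSMUSG00000029467, chromosome 5) had 1141, 1515 and 2799 scaled reads in the knockout libraries and 1183, 1067 and 1074 in the control libraries. Replicates 7 and 8 lay above every control library and replicate 5 lay among them. The log2 change of 0.61 (SE 0.27, 95% interval -0.0038 to 1.22) did not pass (limma adjusted p = 0.173), and without knockout replicate 5 it was 0.89 and passed (limma adjusted p = 0.0385). Without knockout replicate 8 it was 0.25. Per kilobase of exon there were 0.979, 1.35 and 3.05 Atp2a2 reads per 1000 of Atp2a1 in the knockout libraries and 0.939, 0.847 and 0.893 in the control libraries. This ratio was higher in each knockout library than in each control library, with a difference of log2 ratios of 0.84 (exact permutation p = 0.1, adjusted 0.2), and of 0.37 without knockout replicate 8. Atp2a1 thus had far more reads than Atp2a2 in all 6 libraries.

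The 42-base exon near the end of Atp2a1 decides which end the pump protein has, and the sequence around it is shown because among the skipped exons tested in these genes it has the most skipping reads. It is exon 22 of 23, at chromosome 7, 126045717 to 126045758 in GRCm39, on the minus strand. Its inclusion gives SERCA1a, the form of adult muscle, and its skipping gives SERCA1b, the neonatal form. In the lines below, from the same GENCODE transcript (GRCm38), the last 24 bases of exon 21 are in lower case and what follows, up to the end of the stop codon, is in capitals.
exon 21 joined to exon 22: tcattgctcggaactatctggaggGATAA
exon 21 joined to exon 23: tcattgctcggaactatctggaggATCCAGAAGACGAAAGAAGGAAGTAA
With exon 22 the reading frame ends after 994 codons, within the first 5 bases of the exon. Without it the frame runs 26 bases into exon 23 and ends after 1001 codons, 7 more.

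In the deposited rMATS junction counts, which list 3 values per group without naming the library, exon 22 was skipped in 50, 114 and 142 reads of the knockout entries and in 44, 44 and 35 reads of the control entries. Inclusion had 74874, 84080 and 64564 reads in the knockout and 80490, 70534 and 62223 in the control entries. Per 100000 junction reads, skipping reads numbered 66.7, 135 and 219 in the knockout and 54.6, 62.3 and 56.2 in the control entries. The exact 95% binomial interval of the lowest knockout entry, 49.5 to 88.0, included the values of all 3 control entries, while those of the other knockout entries, 112 to 163 and 185 to 259, lay above the control intervals. These intervals cover counting error only. The means were 141 ± 76.5 and 57.7 ± 4.07 (SD, n = 3 each), a ratio of 2.43, and the log2 ratio of skipping to inclusion reads had p = 0.1 by exact permutation, two-sided.

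**Figure D3:**
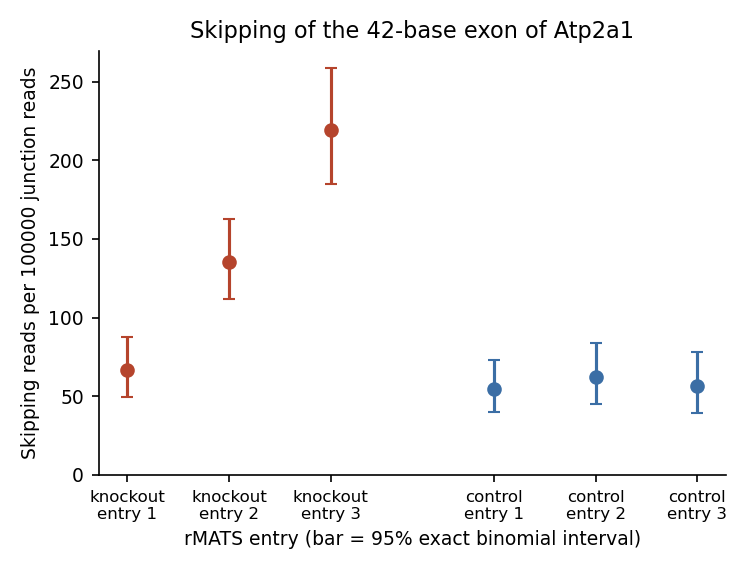
Reads that skip the 42-base exon 22 of Atp2a1 per 100000 junction reads of the exon (vertical axis) in each rMATS entry, knockout left and control right, with exact 95% binomial intervals. The knockout entries run from 66.7 to 219 and the control entries from 54.6 to 62.3.

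Fitted with all 12827 skipped exons that had a mean of at least 20 junction reads, the log2 odds of inclusion of exon 22 changed by -1.12 (SE 0.67, limma adjusted p = 0.649), which did not pass. The authors' rMATS FDR was 1. In absolute terms skipping was rare in both groups: corrected for length, 0.0950%, 0.193% and 0.312% of Atp2a1 messages in the knockout and 0.0778%, 0.0888% and 0.0800% in the control entries lacked the exon. The authors' deposited CASH table, another splicing caller, gave 166 skipping and 248525 inclusion reads for the knockout, and 126 and 335681 for the control, with an FDR of 1. Its knockout column matched the first 2 rMATS entries rather than all 3, as described in the processing.

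Across the members, rMATS listed 16 events, all with enough reads. They were 7 exons of Atp2a1, 1 of Atp2a2, 3 of Casq1, 4 exon events of Hrc and 1 Hrc pair listed as mutually exclusive. By limma 0 of the 16 passed, 1 had an unadjusted p under 0.05, and the authors' FDR called 0. Over all tested events limma called 0.374% of skipped exons and 0.122% of mutually exclusive exons, and the authors' FDR called 3.38% and 4.63%. That 1 event was a 105-base exon of Atp2a1 (chromosome 7, 126059869 to 126059973), with 5, 9 and 5 skipping reads in the knockout entries and 2, 1 and 0 in the control entries. It stood beside 152070 inclusion reads in the knockout and 171910 in the control (limma adjusted p = 0.132, and 0.0287 with 1 read added before the logarithm in place of 0.5). The Hrc pair had 4163 and 6892 reads for its first and second exon in the knockout and 3242 and 5196 in the control. Its log2 odds change was -0.05 (SE 0.13, limma adjusted p = 0.93). Listed also as skipped exons, both were nearly always included. Their better covered events had 5 and 6 skipping reads beside 13594 and 16146 inclusion reads in the knockout. In the control these were 0 and 8 beside 10209 and 11916. The pair counts therefore do not show that these exons exclude each other. CASH listed 48 events of 6 members, Sln having none. Of these, 0 had an FDR or a p-value under 0.05 in the authors' deposited table, with a lowest p of 0.0561. The share over all CASH events was not computed, so this count cannot be set against a background.

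Among the calcium-binding proteins of the store, Casq1 (ENSMUSG00000007122, chromosome 1) had 55665, 56904 and 50559 scaled reads in the knockout libraries and 50998, 58624 and 56365 in the control libraries. The groups overlapped almost wholly, and the log2 change of -0.02 had a 95% interval of -0.27 to 0.22 (SE 0.11, limma adjusted p = 0.908). Hrc (ENSMUSG00000038239, chromosome 7) had 17522, 16004 and 14620 scaled reads in the knockout and 15136, 15820 and 14465 in the control libraries. Its log2 change was 0.08, with a 95% interval of -0.13 to 0.29 (SE 0.09, limma adjusted p = 0.599). The ratio of Hrc to Casq1 also overlapped between the groups (difference of log2 ratios 0.11, exact permutation p = 0.3, adjusted 0.36).

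Casq2 (ENSMUSG00000027861, chromosome 3), the slow and cardiac calsequestrin, had 329, 781 and 1258 scaled reads in the knockout libraries and 552, 461 and 549 in the control libraries. Replicate 5 lay below every control library and replicates 7 and 8 above every control library, so that the knockout values enclosed the control values. The log2 change was 0.40 (SE 0.39, 95% interval -0.495 to 1.3002, limma adjusted p = 0.537). It was -0.03 without knockout replicate 8 and 0.93 without replicate 5, where it passed (limma adjusted p = 0.0224). Per kilobase of exon there were 4.21, 9.79 and 17.7 Casq2 per 1000 Casq1 in the knockout and 7.72, 5.602 and 6.95 in the control libraries (difference of log2 ratios 0.43, exact permutation p = 0.6, adjusted 0.6).

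Levels of different genes were compared as RPKM, reads in a gene scaled to its exon length in kilobases and to the library's total of reads in listed genes. In control muscle the order was Atp2a1 (7816 ± 403), Casq1 (1084 ± 36.4), Hrc (226 ± 11.1), Casq2 (7.30 ± 0.945), Atp2a2 (6.99 ± 0.68), Pln (1.46 ± 0.124) and Sln (0.668 ± 0.104; SD, n = 3 each). Casq2 and Atp2a2 overlapped there and each other neighbouring pair was separate. In knockout muscle the first 3 places were the same, at 6721 ± 539, 1070 ± 56.2 and 240 ± 7.71 RPKM. They were followed by Sln (18.8 ± 21.9), Atp2a2 (11.7 ± 6.20), Casq2 (11.3 ± 7.15) and Pln (1.90 ± 0.531), of which Sln, Atp2a2 and Casq2 overlapped. Sln was thus last of the 7 in the control group and its libraries ran from 3.32 to 43.9 RPKM in the knockout group.

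The knockout libraries in which Sln was highest were also high in some other gene lists. A list of 9 genes known from developing or regenerating fibres had 5 that rose (Myh3, Myh8, Mymk, Actc1 and Myl4) and 4 that did not pass, with a median log2 change of 2.14, where 5.74% of all genes were called higher. At an unadjusted p under 0.05 there were 7 of the 9, against 29.3% of all genes, and limma-voom called 2. This list and those below were chosen with earlier results of these data known, so such counts are descriptions and add no independent support. Set against the control libraries, the mean log2 value of that list was higher by 1.07, 1.59 and 2.92 in knockout replicates 5, 7 and 8. Its summed level ran from 10520 to 21419 scaled reads in the knockout and from 3492 to 5754 in the control libraries. Most of this sum was Actc1, which was highest in replicate 7 (9355, 19597 and 18158 in knockout replicates 5, 7 and 8). Among 10 slow fibre genes, 1 rose (Tnni1, 2.14), 1 fell (Myl3, -2.42) and 8 did not pass, with a median log2 change of 0.95. Of the 10, 6 had an unadjusted p under 0.05, against 29.3% of all genes, and limma-voom called 1. Beside Tnni1 and Myl3 these were Myh7 (log2 change 1.85), Tnnc1 (1.65), Tnnt1 (1.41) and Myl2 (1.24), so only Myl3 was lower in the knockout. Their summed level, mostly from Lmod2 and Myoz2, ran from 4227 to 10971 in the knockout and from 5358 to 8168 in the control libraries. The mean of their log2 values stood at -0.03, 0.56 and 1.53 in the same 3 knockout libraries and between -0.16 and 0.18 in the control libraries. Of 7 macrophage markers limma called 0 (1 at an unadjusted p under 0.05, and 0 by limma-voom). Their summed level ran from 625 to 2129 scaled reads in the knockout and from 730 to 1035 in the control libraries, none was at 0, and their mean was -0.32, 0.16 and 1.21 in knockout replicates 5, 7 and 8. Means of the fibroblast markers (-1.05, 0.01 and 0.21) and satellite cell markers (-0.67, -0.47 and -0.04) rose in the same order, as did Myh6. Those of the fast fibre, endothelial, smooth muscle and brown fat markers did not. The part of these cells and fibre types in the levels of Sln, Atp2a2, Casq2 and Pln was not tested.

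**Figure D4:**
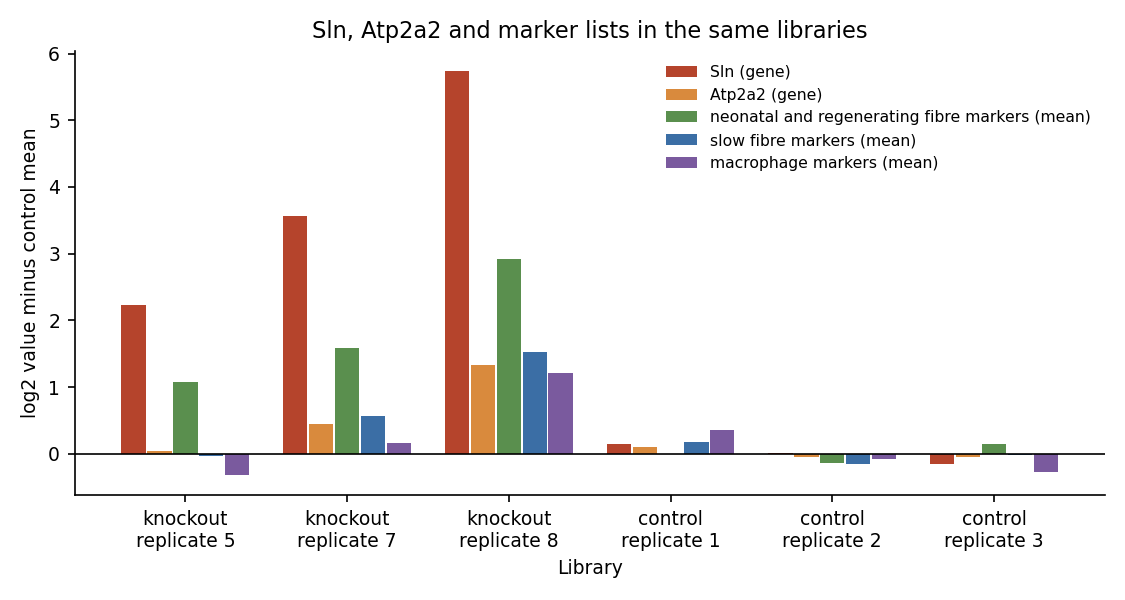
Log2 values minus the control mean (vertical axis) of Sln, Atp2a2 and the means of 3 marker lists in each library, knockout left. All 5 bars are highest in knockout replicate 8, while Sln and the neonatal list are above 1 in all 3 knockout libraries.

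Of 10944 genes with a mean of at least 50 scaled reads, the 5 whose log2 values followed Sln most closely over the 6 libraries were Ppfibp1, a liprin (Pearson r = 0.997), Amot, or angiomotin (0.996), Myh8, the perinatal myosin heavy chain (0.996), and the zinc finger genes Zfp524 (0.994) and Zim1 (0.994). Myh8 had 88.7, 194 and 484 scaled reads in knockout replicates 5, 7 and 8, against 32.2, 21.98 and 21.3 in the control libraries. The coefficient does not measure the size of a change, which was much smaller for others. Amot had 2620, 2899 and 3253 in the same knockout libraries and 2409, 2396 and 2359 in the control libraries. Zfp524 had 133, 140 and 172 against 109, 106 and 106. For Atp2a2 they were Gm56555, Tnnc1, the slow and cardiac troponin C (r = 0.992), the calcium-binding S100a4 (0.991), Tmsb10, a thymosin (0.991), and the myogenic factor Myf6 (0.991). Tnnc1 had 74.3, 117 and 566 scaled reads in the knockout and 59.0, 45.0 and 52.5 in the control libraries. For Casq2 the list was H2-Aa, Prdx4, Gramd1b, H2-Ab1 and Tbx4 (r from 0.977 to 0.991), of which H2-Aa and H2-Ab1 encode class II histocompatibility chains of antigen-presenting cells. These coefficients describe 6 libraries in 2 groups, chosen as the highest among many, and carry no test.

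Beyond the members, 52 other genes of calcium handling were listed, while Strit1, Smim6 and Atp2b2 were not among the listed genes. Of the 52, 1 rose, 7 fell and 44 did not pass by limma, so that 15.4% were called against 11.3% of all genes. Their median log2 change was -0.09, and -0.01 over all genes. S100a1, a calcium-binding protein known to interact with the pump and the release channel, rose to 2306 ± 319 scaled reads in the knockout, against 1629 ± 116 in the control (log2 change 0.49, SE 0.11, limma adjusted p = 0.0246). Atp2a3, the third SERCA gene and mainly one of blood and endothelial cells, fell to 202 ± 51.4, against 325 ± 37.9 (-0.70, SE 0.18, limma adjusted p = 0.0384). Endothelial markers were lower in the same libraries, with 4 of 6 fallen, where 5.51% of all genes were called lower. Their summed level was 6750 to 8692 scaled reads in the knockout and 9664 to 10706 in the control, and none was at 0. Their part in the fall of Atp2a3 was not tested.

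The 6 other genes that fell were Stim2, a calcium sensor of the reticulum (log2 change -0.59), Ppp1r3a, the glycogen- and reticulum-bound phosphatase subunit (-0.48), Camk2a, a calmodulin-dependent kinase (-0.48), Srl, or sarcalumenin, a calcium-binding protein of the reticulum (-0.39), the triad protein Jph1 (-0.38) and the sodium-calcium exchanger gene Slc8a3 (-0.36). Each had all 3 knockout libraries below all 3 control libraries. This adds no support, as these genes were picked by their call in the same libraries. The groups did not overlap for 21 of the 52 genes of the list and for 35.4% of all genes. Srl had 36082, 35204 and 31403 scaled reads in the knockout and 42669, 44887 and 47161 in the control libraries. Of the small SERCA-binding peptides, Mrln (myoregulin) stood at 317 ± 91.1 in the knockout and 440 ± 113 in the control (-0.48, limma adjusted p = 0.241). The gene 1810037I17Rik, or another-regulin, stood at 514 ± 37.8 and 434 ± 45.3 in knockout and control libraries (0.24, limma adjusted p = 0.163). The number of called genes of the list was 0 when control replicate 1, 2 or 3 was left out, 2 when knockout replicate 7 was (Atp2a3 and Camk2a), and 0 by limma without the mean-variance trend. Calls over all genes fell as well, from 1645 to 477, 488 and 511 without control replicates 1, 2 and 3. They were 698 without knockout replicate 7 and 792 without the trend. In the list the balance of directions also moved, with 3 that rose and 3 that fell without knockout replicate 8, and 3 that rose and 7 that fell when libraries were scaled by their totals.

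**Figure D5:**
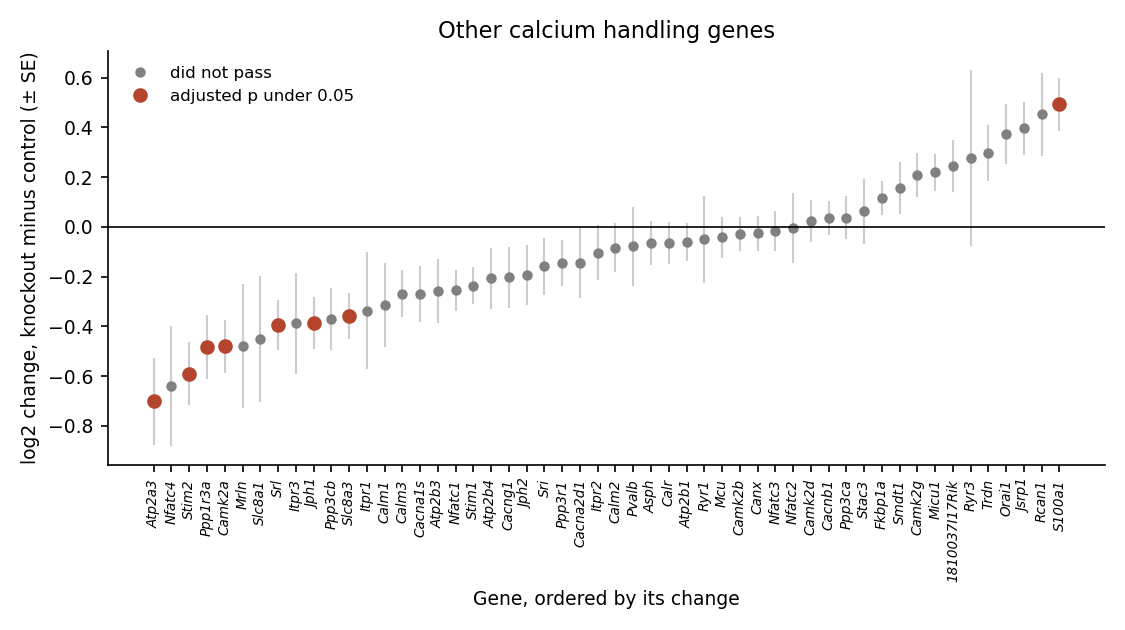
Log2 change (vertical axis, knockout minus control, with SE) of 52 other calcium handling genes ordered by their change. The 8 that passed are in red: S100a1 at 0.49 and 7 genes between -0.70 and -0.36.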

How the data were processed

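Per the labels, 0.3 µg of total RNA per muscle entered a directional MGI library kit. GRCm39, the aligner STAR 2.7.9a, RSEM 1.3.3, Trimmomatic 0.39 and FastQC 12.0 appear in the submitters' processing notes, with no role or setting, and the use of strand in counting is not given. The authors deposited log2 values that equal log2 of reads divided by 1 factor per library, plus 4. Reversing this gave whole reads for 100% of values (tolerance 0.001). No 2 replicates agreed within sampling noise (the lowest chi-square over its degrees of freedom was 10.4), so each was kept.

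Limma 3.58.1 (R 4.3.3) was run on the log2 values as deposited (mean-variance trend, two-sided, Benjamini-Hochberg over 14619 genes, threshold 0.05). Because the deposited unit is log2, negative binomial count models were not used; limma-voom on the recovered reads was an alternative. The authors' deposited p-values are credited where printed. rMATS cells hold 3 junction counts per group, headed sample 1 and sample 2. CASH control skipping reads equalled the sum of sample 1 for 295 of 1591 exons and of sample 2 for 29, so sample 1 was read as control. The CASH knockout value equalled the first 2 entries of sample 2 for 383 and all 3 for 1. Log2 odds of inclusion (0.5 added, at least 20 reads on average) were tested with limma per event type. Gene lengths and overlaps came from GENCODE M21 (GRCm38); exon 22 was matched by the lengths of exons 21 to 23. Exact permutation tests used scipy 1.17.1. Other fits, a pseudocount of 1, other scaling and filters, and leaving out each library were the alternatives. Members and lists were chosen with earlier results of these data known. Beside Acin1 and marker genes named to describe the tissue, named genes were the members, list genes past the threshold, the peptides Mrln and 1810037I17Rik, and the 5 genes most like Sln, Atp2a2 and Casq2. The genes most like Pln are not reported here.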

Additional observations from a re-analysis of the deposited data

How the results depend on the processing

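Each result was recomputed under the alternatives. The ratios cannot pass a threshold of 0.05 in this design, so they are given by size. The number of genes called was 792 without the mean-variance trend and 477 to 1520 when each library was left out in turn. The log2 change of Sln stayed positive throughout and missed the threshold without the trend (3.85, adjusted p = 0.0552), with robust limma (3.85, 0.078) and with limma-voom (4.05, 0.166). It ran from 2.90 to 4.65 over the libraries left out. Called genes of the calcium handling list numbered 0 without the trend and 0 to 8 over the libraries left out. Leaving out libraries moved the log2 change of Casq1 between -0.082 and 0.027, that of Casq2 between -0.032 and 0.93, and the log2 ratio of Casq2 over Casq1 between -0.060 and 0.98, so none of these has a settled direction. The log2 ratio of Atp2a2 over Atp2a1 ran from 0.37 to 1.19 in the same way. Atp2a2, Pln and Casq2 passed without knockout replicate 5 and under no other alternative run. With 1 read added in place of 0.5, 1 member splice event passed. The cause of these shifts was not tested. No paired analysis was possible because the knockout and control libraries share no replicate number. Reads limit the small genes most: Sln rests on 16 to 28 reads per control library.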
